A study of Mus musculus with 8 samples.

Results

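RNA from p53-null mouse liver infected with an adenovirus for TRF2DBDM was compared with RNA from p53-null liver infected with an adenovirus for GFP. The comparison used 2 of the 8 arrays of a study on telomere dysfunction, and the other 6 arrays held single hepatocellular carcinomas of p53-null HBs transgenic mice aged 12 to 15 months, 3 mTERC+ and 3 mTERC- (the telomerase RNA gene present or absent). All animals were C57BL/6J mice without p53, so loss of p53 was shared by both infected groups. Each group consisted of 3 mice given 2e10 plaque-forming units intravenously, and liver RNA was extracted 48 h later. RNA of the 3 mice of a group was pooled before hybridization, so there was 1 array per virus and the variation between mice was averaged away. No uninfected liver and no liver with p53 was on the arrays analysed here, and the age and sex of the infected mice were not given in the sources used here. The array, an Affymetrix mouse expression array, measured 12394 genes through probe sets annotated to a single gene symbol. Of these, 7789 reached the median signal of the array in 1 or both pools and were compared, and 4605 lay below that level in both.

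TRF2 is a protein of shelterin, the complex that covers the ends of chromosomes and keeps them from being treated as broken DNA. In the telomere field, a TRF2 protein that lacks the basic and Myb domains is known to displace TRF2 from telomeres and to uncap them. The labels do not spell out TRF2DBDM or name the species of its sequence. Uncapped telomeres activate DNA damage kinases, and a main branch of that response runs through p53, which these mice lacked. Intravenous adenovirus goes mostly to the liver, where it infects hepatocytes and is also taken up by Kupffer cells, the resident macrophages, and it elicits an interferon response. Hepatocytes carry out drug, bile acid, amino acid and lipid metabolism and secrete most plasma proteins.

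Signals were MAS5 values on a linear scale, and a ratio is that of the signal plus 32, TRF2DBDM over GFP, so it understates differences of genes with low signals. There were no replicates, so no value below carries an error and no test was made. The values describe these 2 pools and cannot separate the transgene from other differences between the pools. The mean signal without the lowest and highest 2% of probe sets was 150 on both arrays, and the median signal was 52.5 with TRF2DBDM and 46.1 with GFP. The 3'/5' ratio of the Gapdh control was 0.841 with TRF2DBDM and 0.793 with GFP, and that of the Actb control was 0.976 and 1.08. Virus load and transgene level were not analysed here.

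The label of both samples names hepatocytes as the tissue, whereas the design text describes liver. All 22 measured hepatocyte markers were above the array median, among them Alb, the gene of albumin, with a signal of 8672 in the GFP pool and 11361 in the TRF2DBDM pool. Markers of other liver cells were also present. Clec4g, a lectin of sinusoidal endothelium, had 481 and 1183, and Dcn, a matrix proteoglycan of stellate cells and fibroblasts, had 712 and 853. Csf1r, the receptor that macrophages need to survive, had 181 and 662. The RNA therefore included that of non-parenchymal cells. In such bulk RNA, fewer cells of a type and less RNA per cell cannot be told apart.

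The virus construct itself was read first through the shelterin genes. Terf2, which encodes TRF2, had a signal of 105 in the GFP pool and 146 in the TRF2DBDM pool, a ratio of 1.3. Whether its probe set lies within the delivered sequence is not known here, so this value does not check the labels. Tinf2, the shelterin subunit that bridges TRF1 and TRF2, was lower with TRF2DBDM, at 538 against 293, a 1.75-fold difference. Acd, the shelterin subunit that recruits telomerase, had 123 and 141, and Pot1a, which binds the single-stranded overhang, had 57.5 and 65.2. Terf1 and Terf2ip were below the array median in both pools.

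Of the 7789 genes compared, 362 (4.65%) had a ratio of 2 or more in favour of the TRF2DBDM pool and 230 (2.95%) a ratio of 2 or more in favour of the GFP pool. Differences of at least 4-fold numbered 58 higher and 17 lower, and differences of at least 8-fold 13 and 3. The ratio was above 1 for 4047 genes (52.0%) and below 1 for 3734 (47.9%), with a median log2 ratio of 0.02. For 5882 genes (75.5%) the pools differed by less than 1.5-fold. Genes at least 2-fold higher had a median signal of 89.1 in the GFP pool and 351 in the TRF2DBDM pool. Those at least 2-fold lower had 325 and 112. The balance of directions depended on the scaling. Among the genes that differed at least 2-fold, 61.1% were higher as deposited, 57.3% after quantile normalization and 41.8% when each array was divided by its median. That last scaling gave 265 genes higher and 369 lower and moved the median log2 ratio of all genes to -0.13, so the list medians below are read against 0.02. The Spearman correlation across genes was 0.886, a description over genes that share the 2 arrays.

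**Figure D1:**
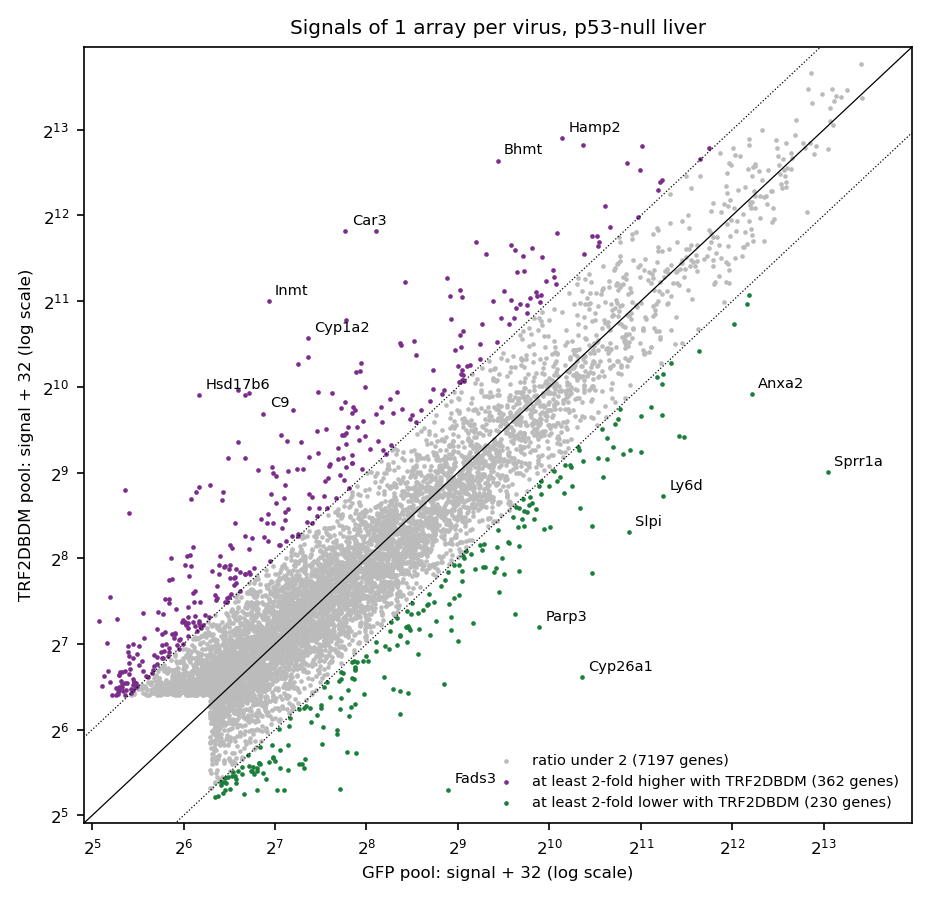
Signal plus 32 of each compared gene in the GFP pool (x axis) and the TRF2DBDM pool (y axis), both on log scales, with 1 point per gene. The solid line marks equal values and the dotted lines a 2-fold difference; 362 genes lie above the upper dotted line (purple) and 230 below the lower one (green).

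A partial check on single values came from genes measured by more than 1 probe set on the same 2 arrays. Of 67 such genes at least 2-fold higher, 62 (92.5%) had all their probe sets on the same side of 1, as did 63 of 74 (85.1%) of those at least 2-fold lower. The share was 59.3% among the 2352 such genes under 2-fold. The probe set that gave the ratio is among those counted, and the others had to reach the array median in 1 or both pools. That level rule favours probe sets that are high in the higher pool. These probe sets share the RNA and the hybridization, so they speak for the measurement and not for other mice. For scale, 2 tumours of the same telomerase group differed at least 2-fold in either direction for 18.8% to 34.2% of genes over the same probe sets, against 7.60% between the infected pools. The range was 18.8% to 23.7% without mTERC- tumour 2, whose Spearman correlations to the other mTERC- tumours were 0.717 and 0.741. Those are single tumours on another array, so their spread is no error of this comparison.

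The genes with the highest ratios were mostly enzymes and secreted proteins of differentiated hepatocytes. Inmt (Entrez Gene 21743), which methylates tryptamine and related amines, had a signal of 89.8 with GFP and 2016 with TRF2DBDM, a ratio of 16.8. Car3 (Entrez Gene 12350), a carbonic anhydrase abundant in liver and muscle, had 186 and 3588, a ratio of 16.6. Its second probe set also lay above 1, at a log2 ratio of 3.94. Hsd17b6 (Entrez Gene 27400), an oxidoreductase of steroids and retinoids, had 40.1 and 929, a ratio of 13.3. Serpina6, the corticosteroid-binding globulin of plasma, had 64.3 and 965. Bphl, a hydrolase that activates valine-ester prodrugs, had 120.1 and 1204, and Rgn, the calcium-binding protein regucalcin, had 64.8 and 621. The 20 highest also contained 7 cytochrome P450 genes, 2 carboxylesterases, a glucuronosyltransferase and the plasma proteins C9 and Mbl2, described with their families below.

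The genes with the lowest ratios were of a different kind. Sprr1a (Entrez Gene 20753), a small proline-rich protein of the cornified envelope that is also known as an injury-induced gene, had a signal of 8425.5 with GFP and 483 with TRF2DBDM, 16.4-fold lower. The other 8 measured genes of its family were below the array median in both pools. Cyp26a1 (Entrez Gene 13082), which degrades retinoic acid and is induced by it, had 1282 and 65.9, 13.4-fold lower. Fads3, a member of the fatty acid desaturase family, had 444 and 7.4. Parp3, a poly(ADP-ribose) polymerase family member that acts at DNA breaks, had 915 and 115, and its second probe set had a log2 ratio of -0.97. Slpi, a secreted inhibitor of leukocyte proteases, had 1836 and 285. Ly6d, a GPI-anchored surface protein of keratinocytes and early lymphoid cells, had 2394 and 391. Fbxo6, an F-box protein that recognises misfolded glycoproteins, had 757 and 131. Rhoc, a small GTPase of the actin cytoskeleton, had 1384 and 301, and Pold4, the smallest subunit of DNA polymerase delta, had 479.9 and 99.6. Cd9, a tetraspanin, had 665 and 162. Dntt, Crct1, Ocstamp and Crybb3, which are known from lymphoid, epithelial, osteoclast and lens cells, had GFP signals between 177 and 297 and TRF2DBDM signals between 7.7 and 40.7.

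**Figure D2:**
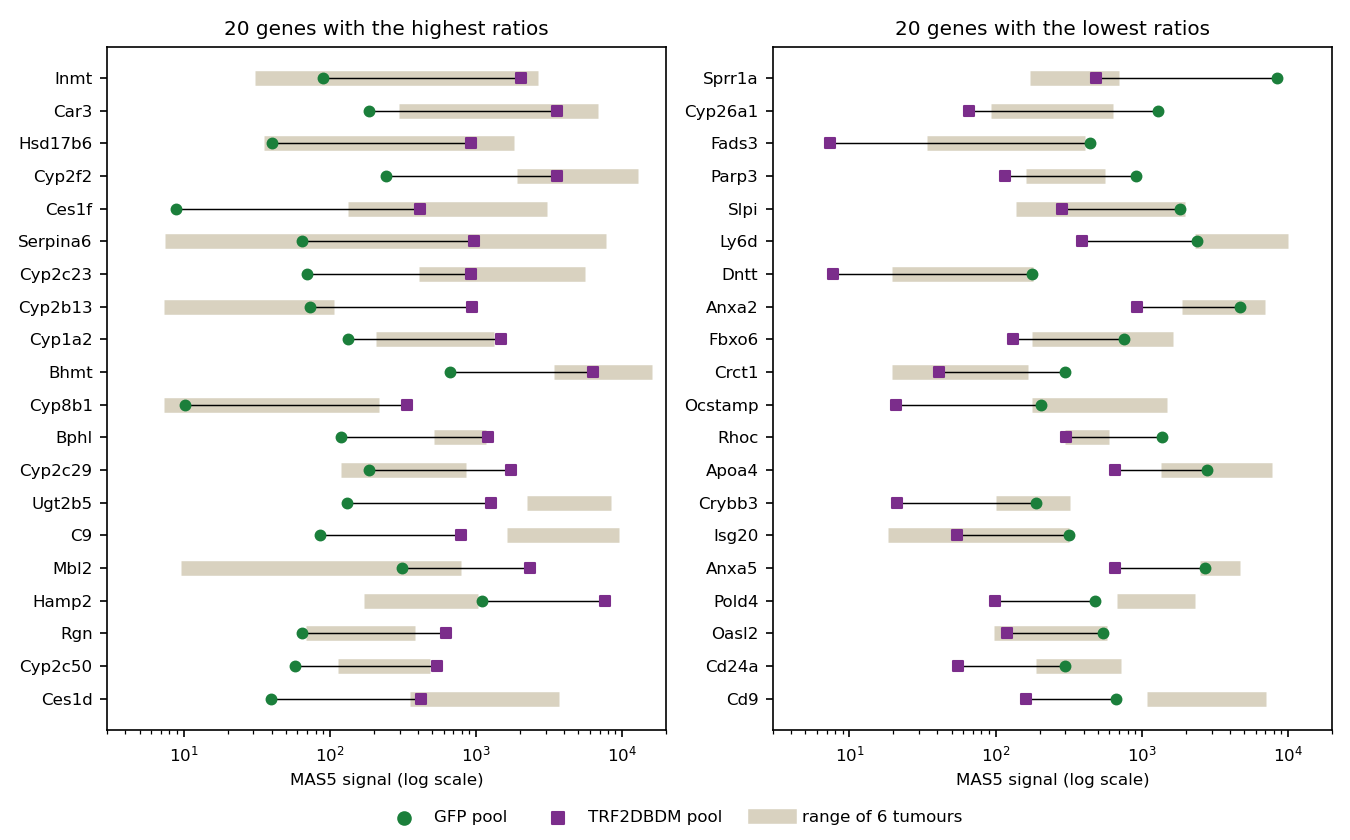
Signal (x axis, log scale) of the 20 genes with the highest ratios (left) and the 20 with the lowest (right) in the GFP pool (green circles) and the TRF2DBDM pool (purple squares). Pale bars give the range over the 6 tumours, whose arrays were scaled separately; Inmt runs from 89.8 to 2016 and Sprr1a from 8425.5 down to 483.

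The 6 p53-null tumours offered a second set of levels for the same probe sets, read side by side because the tables of the 2 kinds of array were scaled separately. Over all compared genes the GFP pool lay below all 6 tumours for 40.6% and above them for 7.22%, and the TRF2DBDM pool for 40.9% and 6.48%. Beside these shares, the GFP pool lay below all 6 tumours for 12 of the 20 genes with the highest ratios, and the TRF2DBDM pool above all 6 for 9 of them. Of the 20 genes with the lowest ratios, 14 had the TRF2DBDM pool below all 6 tumours and 7 the GFP pool above all 6. These genes were chosen by the ratio itself, so the counts are a description only. Cyp2f2, for example, ranged from 1916 to 12838 in the tumours with a median of 6391, which put the GFP pool, at 243, below every tumour. Sprr1a ranged from 173 to 696 in the tumours, far below its GFP pool and around its TRF2DBDM pool. Anxa2 ranged from 1886 to 6991 in the tumours, above its TRF2DBDM pool of 933.

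Genes were then grouped into 60 lists by pathway, function and cell type. Of the genes compared, 1354 were on a list, and they included 162 of the 362 genes past 2-fold upward and 55 of the 230 past 2-fold downward. Some genes are on more than 1 list, 227 in all, so the lists are not independent of each other. Counts of members are given over those compared. A member that reached the array median in only 1 pool was compared through that pool, which favours a higher signal there. Dividing each array by its median lowered the list medians by 0.10 to 0.19. They are to be read beside the 52.0% of all compared genes with a ratio above 1, the 4.65% that were 2-fold or more above and the 2.95% that were 2-fold or more below.

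**Figure D3:**
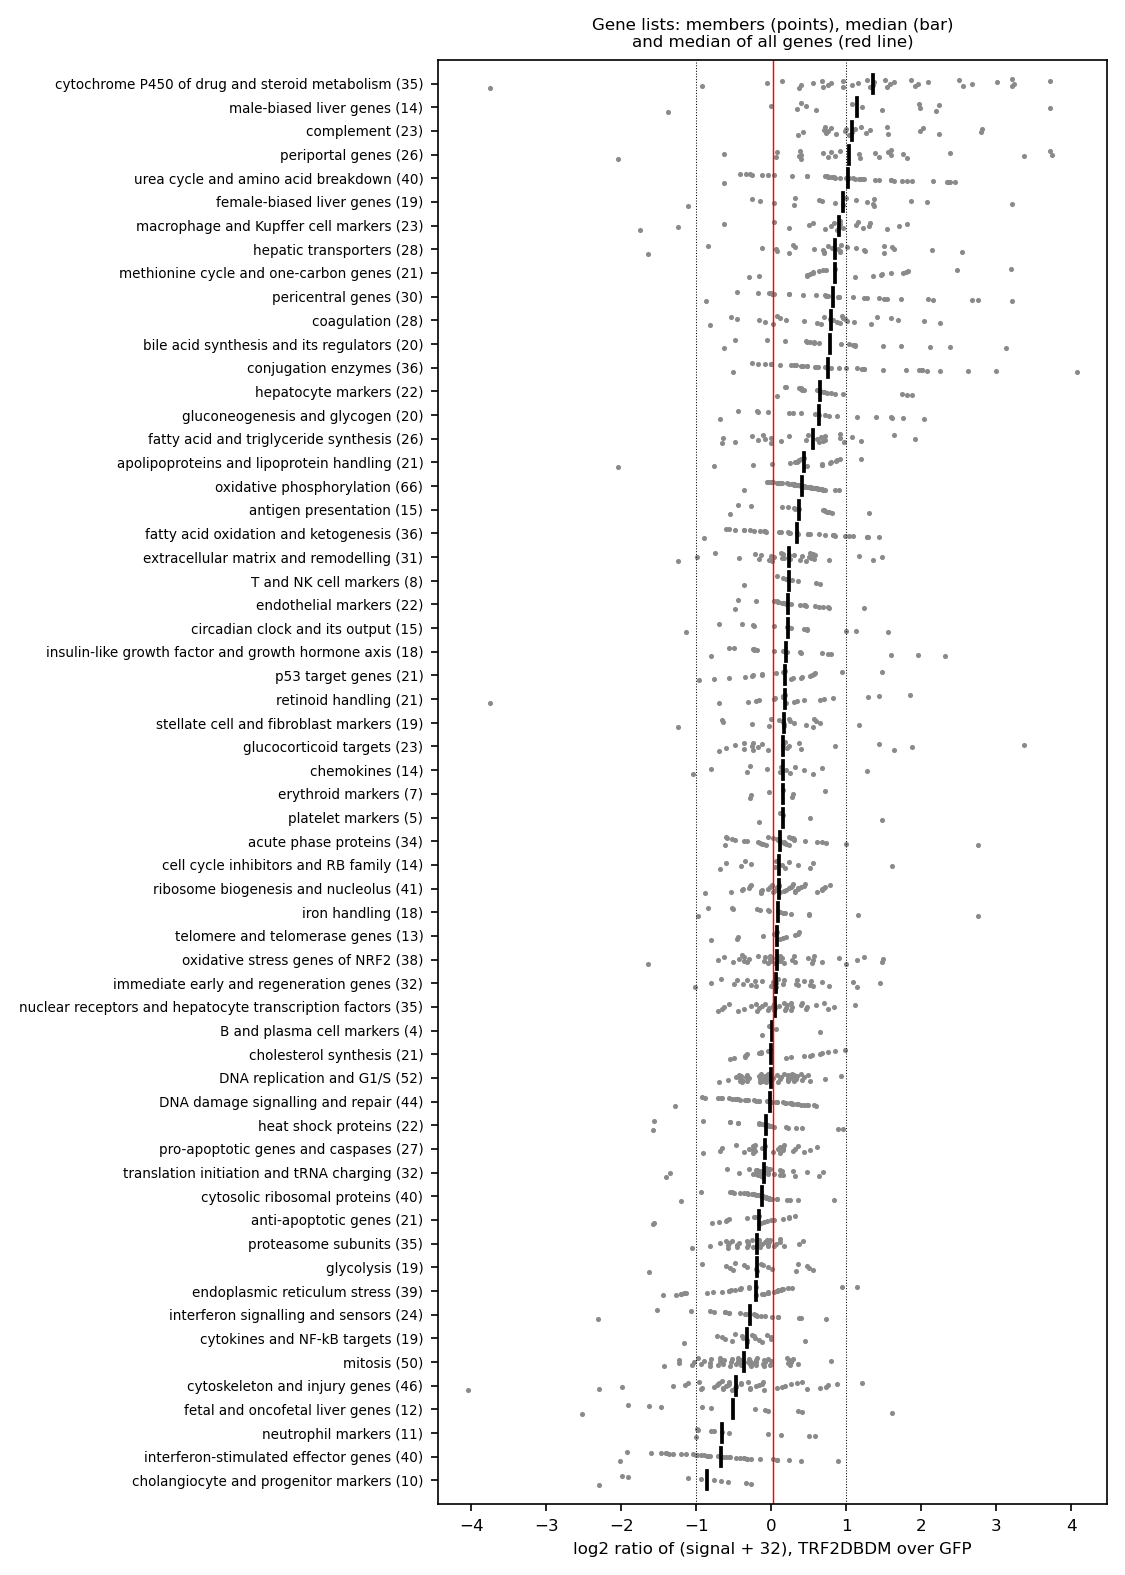
Log2 ratio of signal plus 32, TRF2DBDM over GFP (x axis), for the compared members of 60 gene lists (y axis, number of members in brackets); each point is a gene and each bar a list median. The red line is the median of all compared genes, 0.02, and the dotted lines mark a 2-fold difference; medians run from 1.36 for cytochrome P450 genes to -0.86 for bile duct and progenitor markers.

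Cytochrome P450 enzymes, which oxidise drugs, steroids and fatty acids, had the highest list median of the 60, at a log2 ratio of 1.36. Of 35 members, 32 were higher with TRF2DBDM and 22 were at least 2-fold higher. Cyp2f2, a periportal and airway enzyme, had 243 in the GFP pool and 3585 in the TRF2DBDM pool, a ratio of 13.1. Cyp1a2, which metabolises caffeine and aromatic amines in pericentral hepatocytes, had 132 and 1486. Cyp2e1, the ethanol-oxidising form, had 2003.5 and 5901, and Cyp3a11, a main drug-metabolising form of mouse liver, had 1525 and 4401.5. The subfamilies differed in size, with a median of 1.94 for Cyp2c and 0.48 for Cyp2d. All 10 compared Cyp2c genes were higher, 8 of them at least 2-fold, with Cyp2c23 at 69.9 and 928, Cyp2c29 at 186.5 and 1727.5 and Cyp2c50 at 57.5 and 543. All 4 compared Cyp3a genes were higher, as were 4 of 5 Cyp2d and 6 of 7 Cyp4 genes. Cyp2c39, Cyp2c54, Cyp2c55, Cyp2d13 and Cyp3a44 reached the array median only in the TRF2DBDM pool. Among the members of near-identical families, probe sets may also bind transcripts of relatives, and this was not tested. The other 3 members of the list were lower, namely Cyp26a1, Cyp4f16, at 158 and 68.2, and Cyp2d22, at 250.1 and 239.

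**Figure D4:**
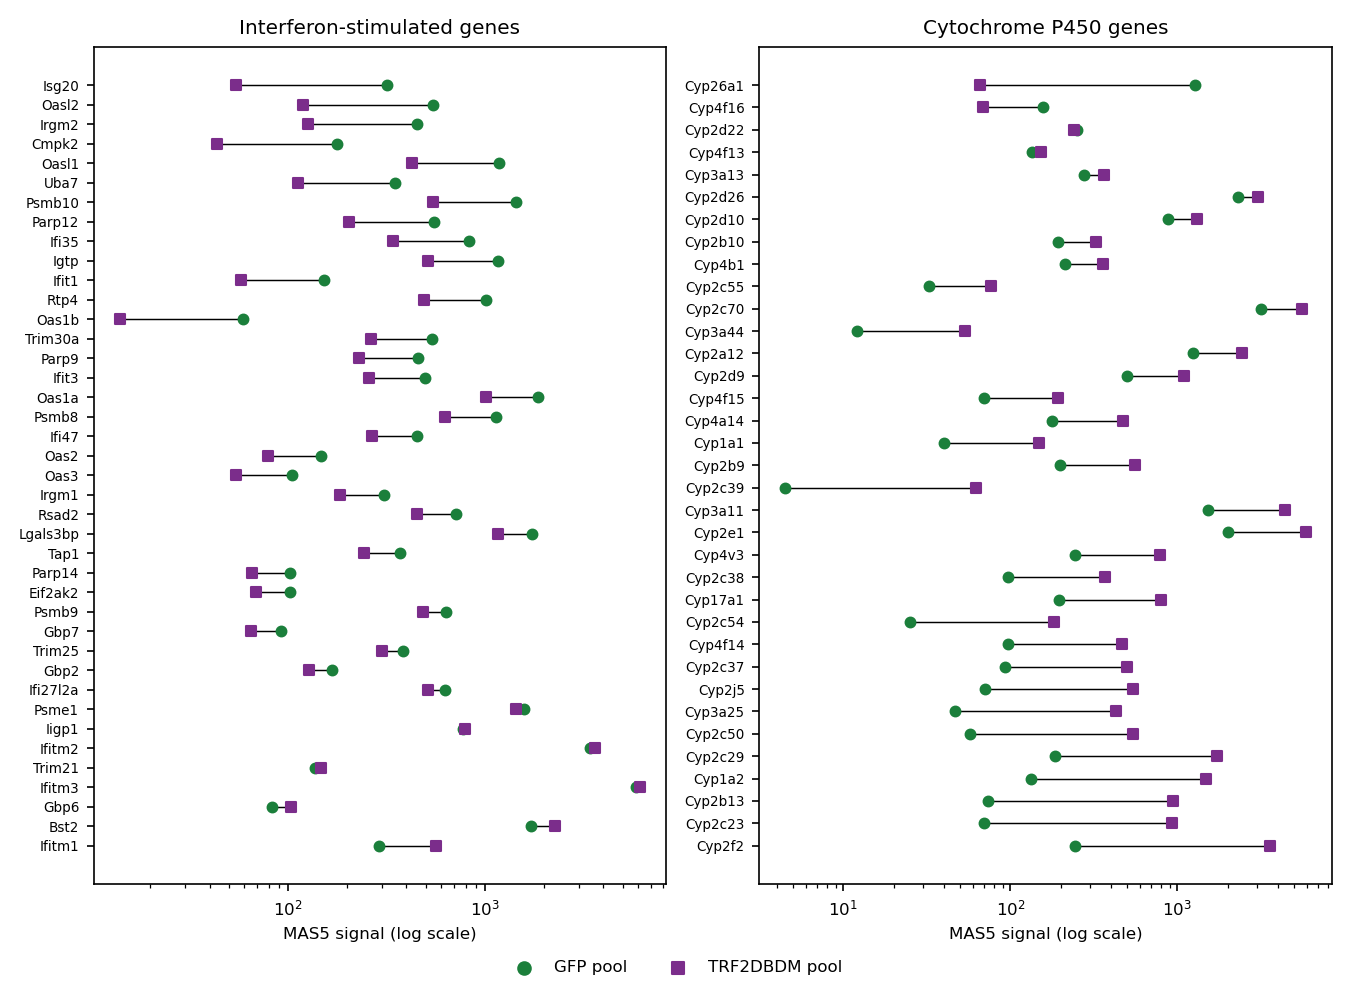
Signal (x axis, log scale) of the compared interferon-stimulated effector genes (left) and cytochrome P450 genes (right) in the GFP pool (green circles) and the TRF2DBDM pool (purple squares), ordered by ratio. On the left 33 of 40 genes have the square to the left of the circle, and on the right 32 of 35 have it to the right.

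Enzymes of the next step, conjugation to glucuronic acid, sulfate, glutathione or methyl groups, had a median of 0.75 over 36 members. Of these 30 were higher and 15 at least 2-fold higher. All 6 compared genes of the UDP-glycosyltransferase family were higher, with Ugt2b5 at 132 in the GFP pool and 1273 in the TRF2DBDM pool, Ugt2b34 at 213 and 1129.8 and Ugt3a2 at 35.6 and 382.5. Ugt3a2, Ugt2b1 and Ugt3a1 reached the array median only in the TRF2DBDM pool. The sulfotransferase Sult2a2, which acts on hydroxysteroids, had 731.5 and 3192. Of 20 glutathione transferases 16 were higher and 5 at least 2-fold higher, among them Gsta3 at 494 and 2092. Gstp1, the class pi form, had 7343 and 7307, so the pools hardly differed there. Carboxylesterases, which hydrolyse esters and drugs in the endoplasmic reticulum, were higher in 8 of 8 compared genes, 6 of them at least 2-fold. Ces1f had 8.9 and 413, Ces1d 39.7 and 422, and Ces1c 555 and 3272.5. Ces1f, Ces1d and Ces1e, the last at 3.7 and 96.9, reached the array median only in the TRF2DBDM pool. Ces4a, below it in both pools, had 33.0 and 37.4.

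Genes of uptake, bile acid synthesis and export followed the same direction. Hepatic transporters had a median of 0.85, with 25 of 28 higher and 10 at least 2-fold higher. Slc10a1, the sodium-dependent bile acid uptake carrier of the sinusoidal membrane, had 114 in the GFP pool and 817 in the TRF2DBDM pool. Slc22a7, an organic anion carrier, had 26.2 and 224. Abcb11, the bile salt export pump, had 120.5 and 274. Abcc3, a basolateral efflux pump known to be raised in cholestasis, went the other way, at 996 and 299, 3.11-fold lower. The bile acid synthesis list had a median of 0.78, with 9 of 20 members at least 2-fold higher. Cyp7a1, the rate-limiting enzyme of the pathway, had 34.9 and 189.8. Cyp8b1, which directs synthesis toward cholic acid, had 10.2 and 337, a ratio of 8.74. Slc27a5, the ligase that activates bile acids for conjugation, had 488 and 2213. Nr1h4, the bile acid receptor FXR, had 77.4 and 206, and Nr0b2, the FXR-induced repressor SHP, had 600.4 and 377. The other 2 lower members were Fgfr4, the receptor through which a gut hormone restrains synthesis, at 181 and 119, and Acox2, a peroxisomal oxidase, at 638 and 611. Of the 4 probe sets of Fgfr4, 1 lay above 1.

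Amino acid breakdown and the methionine cycle were among the lists with the most members past 2-fold. The list of the urea cycle and amino acid breakdown had a median of 1.02, with 33 of 40 members higher and 20 at least 2-fold higher. Cps1, the first enzyme of the urea cycle, had 804.5 in the GFP pool and 2909 in the TRF2DBDM pool, and Otc, the second, had 106 and 431. Hal and Amdhd1, enzymes of histidine breakdown, had 102 and 664, and 54.1 and 407. Haao, of the kynurenine pathway of tryptophan, had 213 and 1206, and Tdo2, which opens that pathway, had 454 and 1745.5. Gpt2, the mitochondrial alanine aminotransferase, and Nags, which makes the activator of Cps1, were lower, at 469.7 and 291.5, and 604 and 444. The methionine cycle and one-carbon list had a median of 0.85, with 19 of 21 higher. The 4 genes named next had the highest ratios on it. Mat1a, which makes the methyl donor S-adenosylmethionine, had 862 and 3123. Gnmt, which consumes surplus methyl groups, had 2036 and 7153, and Bhmt, which remethylates homocysteine from betaine, had 661 and 6346. Cth, the last enzyme of cysteine synthesis, had 146 and 949.

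Glucose and lipid metabolism showed smaller shifts. Gluconeogenesis and glycogen genes had a median of 0.63, with 15 of 20 higher. G6pc, which releases glucose from hepatocytes, had 179 in the GFP pool and 833 in the TRF2DBDM pool, and Fbp1, fructose bisphosphatase, had 1808 and 6209. Pck2, the mitochondrial phosphoenolpyruvate carboxykinase, was lower, at 190 and 105. Glycolysis genes had a median of -0.19, with 13 of 19 lower. Pkm, the pyruvate kinase of non-hepatocyte and growing tissue, had 1501 and 462, and Aldoa, the aldolase of muscle and growing tissue, had 3827.5 and 2007. Fatty acid and triglyceride synthesis had a median of 0.55, with Scd1, the stearoyl-CoA desaturase, at 199 and 838 and Lpin1, a phosphatidate phosphatase, at 52.3 and 229. Fatty acid oxidation and ketogenesis had a median of 0.34, with Crot, which moves medium-chain acyl groups out of peroxisomes, at 221 and 654. Cholesterol synthesis was split, with 10 members higher and 11 lower and none at least 2-fold either way. Oxidative phosphorylation genes differed by small amounts in 1 direction, since 61 of 66 members were higher but none by 2-fold, with a median of 0.41. Cox6c, a subunit of cytochrome oxidase, had the highest ratio there, at 493 and 947.

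All 23 compared complement genes were higher in the TRF2DBDM pool, 13 of them at least 2-fold, with a median of 1.07. C9, which forms the pore of the membrane attack complex, had 85.2 in the GFP pool and 792.5 in the TRF2DBDM pool, a ratio of 7.03. C8a and C8b, subunits of the same complex, had 33.9 and 228.5, and 109 and 628. Mbl2, the mannose-binding lectin that starts the lectin pathway, had 309.9 and 2350.4. C1qa, C1qb and C1qc on this list are made mainly by macrophages, and they are also on the macrophage list. Coagulation genes had a median of 0.80, with 23 of 28 higher and 8 at least 2-fold higher. Hrg, a plasma glycoprotein that binds heparin and plasminogen, had 600.5 and 2969, and F13b, the carrier subunit of factor XIII, had 36.9 and 249.6. The fibrinogen chains differed less, with Fga at 4473 and 5129 and Fgb at 6945 and 7304. Plat, the tissue plasminogen activator of endothelium, and Thbd, thrombomodulin, were lower, at 137 and 64.2, and 128 and 78.0.

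Apolipoproteins and lipoprotein handling genes had a median of 0.44, with 18 of 21 higher. Apoc4 had 2366 in the GFP pool and 5429 in the TRF2DBDM pool, and Apom, the carrier of sphingosine phosphate in HDL, had 1716 and 3266. Apoa4, an apolipoprotein that rises in fasted or fatty liver, was 4.16-fold lower, at 2813 and 653. The list of acute phase proteins had a median of 0.11, which turned to -0.04 after quantile normalization and -0.08 with arrays divided by their median, and 21 of 34 members were higher. Saa1 and Saa2, the serum amyloid genes, had 8801.5 and 10317, and 5976 and 6423. Hp, haptoglobin, had 9324 and 10603, and Lcn2, lipocalin, had 10946 and 10572, so these proteins of the acute phase were near equal in both pools. Hamp2, a hepcidin gene, was the member that differed most, at 1097.5 and 7612, while its neighbour Hamp, the main iron-regulating hepcidin, had 6375.5 and 6777. The probe sets of this closely related pair may bind each other's transcripts, and this was not tested. Tfr2, the liver sensor of transferrin iron, had 497 and 1138, and the iron list as a whole had a median of 0.09, which lay below 0 under both other scalings.

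Beside these lists, all 22 hepatocyte markers were higher in the TRF2DBDM pool as deposited, with a median of 0.65 and 3 at least 2-fold higher. After quantile normalization 19 of the markers were higher and 3 lower, and with arrays divided by their median 20 and 2. Their summed signal was 136918 with TRF2DBDM and 95860 with GFP. The 3 past 2-fold were Tdo2, Cps1 and Asgr2, a subunit of the asialoglycoprotein receptor that had 127 and 497. The part of the hepatocyte content of the pools in the metabolic lists was not tested. The list of nuclear receptors and hepatocyte transcription factors, some of which other cells also make, had a median of 0.05, or -0.07 with arrays divided by their median. Nr1h4 was its only member at least 2-fold apart. Ppara, the fatty acid receptor of hepatocytes, had 53.4 and 121, and Nr1i3, the xenobiotic receptor CAR, had 143 and 262.

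HNF1 is a homeodomain factor that binds many promoters of liver-specific genes, so its element was searched for in RefSeq promoters (assembly GRCm38.p6). The letters GTTAATNATT were read on both strands of the 250 bases before the gene start. They were found in 8 of 288 promoters of genes at least 2-fold higher (2.78%) and in 1 of 188 of genes at least 2-fold lower (0.532%). The share was 0.411% of all 27025 promoters and 0.346% of those of compared genes. The 8 genes were Afm, G6pc, F13b, Hc, Habp2, Mtarc2, Prodh2 and Slc22a29. For scale, TTGCNNAA, letters of the C/EBP element, occurred in 14.6% of promoters of higher genes, 9.57% of lower genes, 9.55% of all genes and 8.0% of compared genes. TATAAA, the TATA box, occurred in 14.2% of promoters of higher genes, 7.98% of lower genes, 13% of all genes and 7.01% of compared genes. The share among higher genes was thus close to that of all promoters but above that of compared genes. Both strands were read for these as well, and the differences between shares were not tested. A match describes letters only and is no evidence of binding. The following promoters of a vitamin E carrier of plasma, of glucose 6-phosphatase and of a coagulation factor subunit are shown because each holds the rare HNF1 letters (in capitals). They lie at chr5:90518699-90518948, chr11:101367466-101367715 and chr1:139501457-139501706, all on the plus strand.
Afm: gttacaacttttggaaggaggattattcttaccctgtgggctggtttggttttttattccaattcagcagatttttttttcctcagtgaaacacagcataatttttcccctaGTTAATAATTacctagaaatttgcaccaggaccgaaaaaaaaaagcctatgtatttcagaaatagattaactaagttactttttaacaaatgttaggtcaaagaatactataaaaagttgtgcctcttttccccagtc
G6pc: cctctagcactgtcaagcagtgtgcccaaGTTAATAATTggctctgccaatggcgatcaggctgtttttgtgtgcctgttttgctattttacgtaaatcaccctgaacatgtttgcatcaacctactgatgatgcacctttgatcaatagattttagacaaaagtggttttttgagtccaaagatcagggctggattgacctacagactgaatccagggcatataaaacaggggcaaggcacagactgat
F13b: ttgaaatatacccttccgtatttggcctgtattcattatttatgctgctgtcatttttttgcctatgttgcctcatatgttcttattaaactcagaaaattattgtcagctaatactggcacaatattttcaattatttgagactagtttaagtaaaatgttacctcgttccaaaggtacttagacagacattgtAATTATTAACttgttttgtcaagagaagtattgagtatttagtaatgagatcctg
The matches begin at positions -138, -221 and -55 relative to the gene start, and in F13b the capitals are the reverse complement of the searched letters. Afm had 80.9 in the GFP pool and 489 in the TRF2DBDM pool, G6pc 179 and 833, and F13b 36.9 and 249.6.

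Hepatocytes differ along the lobule, with some enzymes made near the portal vein and others near the central vein, and most compared genes of both kinds were higher. The periportal list had a median of 1.04, with 24 of 26 higher, and the pericentral list a median of 0.82, with 25 of 30 higher. With the second probe set of each gene, these medians were 0.25 over 6 periportal genes and 0.18 over 8 pericentral genes. Aldh1a1, a pericentral retinal dehydrogenase, had 731 in the GFP pool and 2034 in the TRF2DBDM pool, and Pon1, a paraoxonase carried on HDL, had 449 and 2096. The pericentral genes Cldn2, a tight junction channel, and Lgr5, a Wnt-amplifying receptor, were lower, at 613 and 320.3, and 139.5 and 93.1. Genes with a sex bias in mouse liver showed no single direction by sex, since the female-biased list had a median of 0.95 and the male-biased list of 1.14. Cyp2b13, a female-biased gene, had 73.4 and 941, and Mup3, a male-biased major urinary protein, had 1.8 and 122.5. Ghr, the growth hormone receptor, had 157 and 698.5, and Igf1, its main target in liver, had 501 and 1583, although 1 of the 3 probe sets of Igf1 had a log2 ratio of -0.20. Igfbp2, a binding protein for insulin-like growth factors, had 165 and 942.5.

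Glucocorticoid targets gave no common direction, with 12 of 23 higher and a median of 0.16 that turned to -0.02 with arrays divided by their median. Serpina6 and Tdo2 were at the top of that list, while the direct targets Tsc22d3, at 226 and 257, and Per1, at 212 and 118, lay near or below equality. Among circadian genes, Nr1d1 and Nr1d2, the REV-ERB repressors, were higher in the TRF2DBDM pool, at 34.4 and 114, and 11.6 and 95.6. Cry2, another clock repressor, was lower, at 63.1 and 11.1, as was Per1. The hour of day at which the livers were taken was not given in the sources used here.

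Interferon-stimulated genes, the antiviral program that infected cells and their neighbours switch on, were lower in the TRF2DBDM pool. Of 40 compared effector genes 33 were lower (11 at least 2-fold) and 7 higher (none at least 2-fold), with a median of -0.67. Isg20, an exonuclease of single-stranded RNA, had 319 in the GFP pool and 54.2 in the TRF2DBDM pool, 4.07-fold lower. All 7 compared oligoadenylate synthetase genes were lower, among them Oasl2 at 542 and 119, Oasl1 at 1184 and 427 and Oas1a at 1854 and 1011. Oas1b, at 59.2 and 14.0, and Oas1c, at 54.4 and 6.3, reached the array median only in the GFP pool. Oas1e and Oas1h, below it in both pools and so not compared, were higher, at 16.9 and 26.8, and 2.1 and 13.4. Of the immunity-related GTPases, which attack vacuoles of intracellular pathogens, Irgm2 had 455 and 127 and Igtp 1167.5 and 512, whereas Iigp1 had 776 and 789. Ifit1, which binds viral RNA ends, had 153 and 58.1. Uba7, the activating enzyme for ISG15 conjugation, had 348 and 112, and Psmb10, an immunoproteasome subunit, had 1444 and 544. Bst2, the tether of budding virus, and Ifitm1, a block to viral entry, were higher, at 1712 and 2265, and 289 and 564. The difference was therefore spread over most of the list but not over all of its families.

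The signalling side of the pathway showed a smaller difference. The list of interferon signalling and sensors had a median of -0.28, with 18 of 24 lower and 3 at least 2-fold lower. With the second probe set of each gene, available for 9 members, that median was 0.16. The members past 2-fold were Dhx58, a cytoplasmic RNA sensor also called LGP2, at 427 and 60.4, Zbp1, a sensor of Z-form nucleic acid, at 782 and 251.5, and Ifngr1, a chain of the interferon gamma receptor, at 242.5 and 98.6. Of the 3 probe sets of Dhx58, 1 lay on the other side, at a log2 ratio of 0.40. Stat2, part of the factor that drives the type I response, had 147 and 69.5, and Irf7, its amplifier, had 993 and 661. Irf8, a factor of macrophages and dendritic cells, was higher, at 99.4 and 186.

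The DNA element through which type I interferon acts, the interferon-stimulated response element, was searched as GAAANNGAAA on both strands of the 250 bases before the gene start. It was present in 13 of 32 effector genes with a promoter entry (40.6%), against 3.05% of all promoters and 2.86% of those of compared genes. Among effector genes at least 2-fold lower it was in 3 of 11 (27.3%), and among those under 2-fold in 10 of 21 (47.6%). The promoters of the 3 genes with the element that were at least 2-fold lower are shown with their matches in capitals. They lie at chr11:58214727-58214976, chr11:58199306-58199555 and chr19:34640639-34640888, all on the plus strand of GRCm38.p6.
Irgm2: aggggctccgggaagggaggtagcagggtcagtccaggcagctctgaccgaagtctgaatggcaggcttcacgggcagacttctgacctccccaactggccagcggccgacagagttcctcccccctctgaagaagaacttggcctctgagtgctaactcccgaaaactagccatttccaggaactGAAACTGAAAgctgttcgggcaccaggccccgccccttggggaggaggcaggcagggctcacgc
Igtp: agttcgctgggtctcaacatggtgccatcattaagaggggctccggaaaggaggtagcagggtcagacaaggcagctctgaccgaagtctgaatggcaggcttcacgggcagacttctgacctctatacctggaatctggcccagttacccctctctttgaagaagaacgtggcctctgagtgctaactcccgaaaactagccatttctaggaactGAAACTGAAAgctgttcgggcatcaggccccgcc
Ifit1: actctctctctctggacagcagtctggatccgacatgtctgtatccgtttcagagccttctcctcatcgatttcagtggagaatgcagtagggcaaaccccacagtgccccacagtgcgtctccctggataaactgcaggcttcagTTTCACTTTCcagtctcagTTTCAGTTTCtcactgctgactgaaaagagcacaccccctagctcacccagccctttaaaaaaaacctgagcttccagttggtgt
The matches begin at -64 in Irgm2, at -34 in Igtp and at -104 and -85 in Ifit1, where the capitals are the reverse complement of the searched letters. Of the 3 genes Irgm2 differed most, by 3.06-fold, followed by Igtp, by 2.21-fold, and Ifit1, by 2.05-fold.

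Other inflammatory genes did not all follow the interferon-stimulated genes. Cytokines and NF-kB targets had a median of -0.32, with 17 of 19 lower. Nfkb2, a subunit of NF-kB that is itself a target, had 202 in the GFP pool and 72.9 in the TRF2DBDM pool, and Il1b had 86.8 and 43.2. The chemokine list had a median of 0.16, which was 0.18 after quantile normalization and at 0 with arrays divided by their median. Its members at the extremes were both ligands of CXCR3, a receptor of activated T cells. Cxcl9 was higher with TRF2DBDM, at 89.2 and 262, and Cxcl10 was lower, at 442 and 197. Antigen presentation genes had a median of 0.37, with 12 of 15 higher. The class II genes H2-Aa and H2-Ab1 had 150.4 and 272, and 112 and 221. Tap1, the interferon-inducible peptide transporter of the class I pathway, was lower, at 371 and 243.

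Markers of non-parenchymal cells differed in direction by cell type. Of 23 compared macrophage markers 20 were higher with TRF2DBDM and 8 at least 2-fold higher, with a median of 0.90 and a summed signal over all 29 measured members of 5923 against 4546. Csf1r and Lyz2, a lysozyme of myeloid cells, had ratios of 3.25 and 3.51. The 3 probe sets of Csf1r had log2 ratios from 0.51 to 1.7. Adgre1, the F4/80 antigen, had 50.7 in the GFP pool and 153 in the TRF2DBDM pool. Of the markers of Kupffer cells proper, Clec4f, at 6.4 and 5.5, Vsig4, at 30.3 and 26.8, and Marco, at 7 and 11.7, were below the array median in both pools, and Cd5l had 40.4 and 96.9. More than 2-fold lower were the endotoxin receptor Cd14, at 1261 and 353, and the lysosomal protein Cd68, at 799 and 319.6. Endothelial markers had a median of 0.22, with 19 of 22 higher and Clec4g past 2-fold. Neutrophil markers had a median of -0.66, with 8 of 11 lower and a summed signal over all 14 measured members of 12783 against 14292. Most of both sums came from Lcn2, which was described above with the acute phase proteins and was near equal in the pools. S100a9, a calcium-binding protein of neutrophils, had 1002 and 556, and Prtn3, a granule protease, had 276 and 121. Of the 3 higher members, Ltf had 95.3 and 158 and Ngp 192.4 and 284.9. Stellate and fibroblast markers had a median of 0.17.

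**Figure D5:**
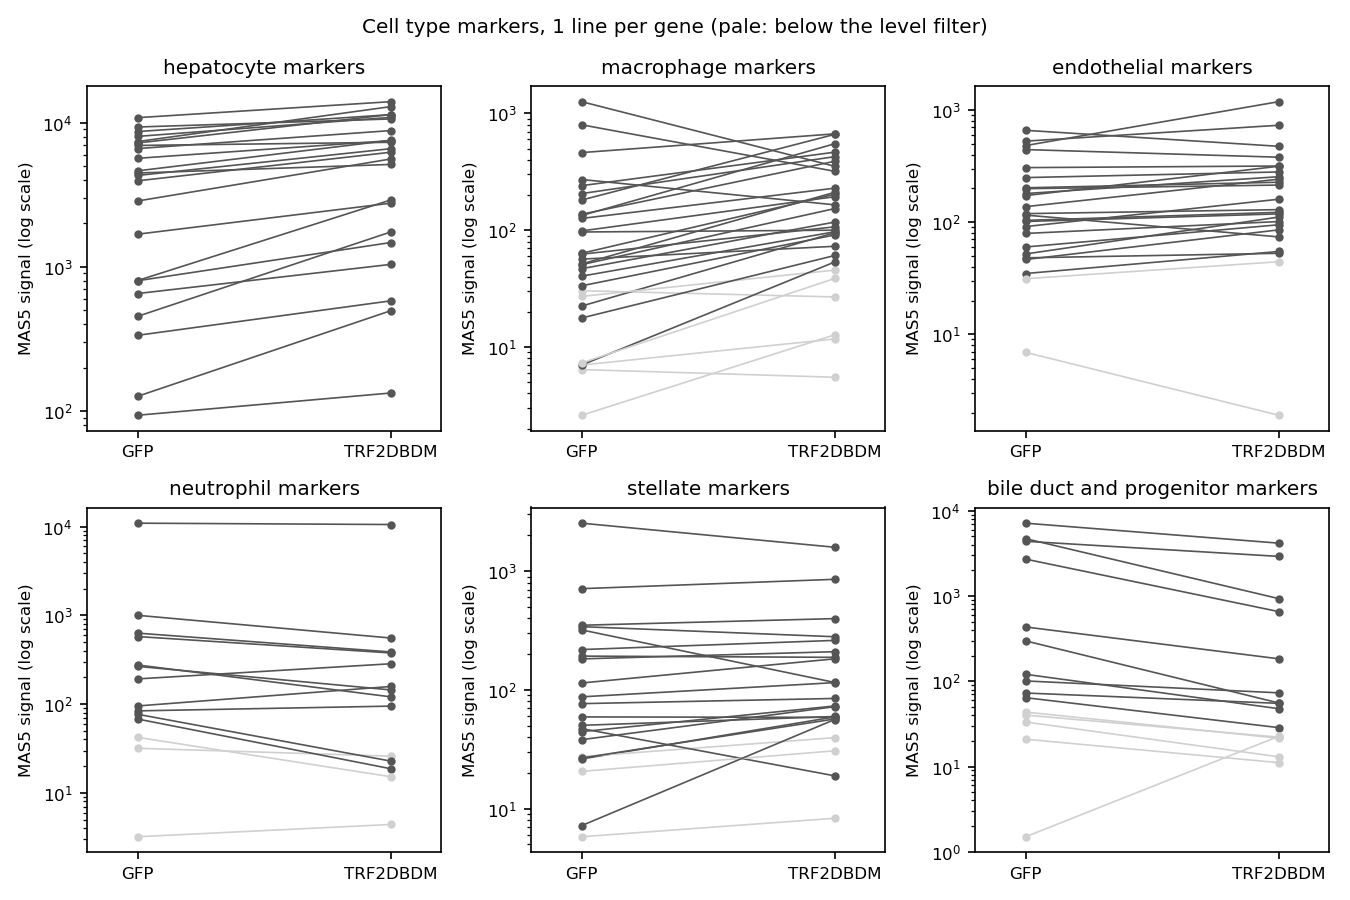
Signal (y axis, log scale) of cell type markers in the GFP and TRF2DBDM pools (x axis), with 1 line per gene and pale lines for genes below the array median in both pools. All 22 hepatocyte lines slope upward to the right, 20 of 23 dark macrophage lines do, and all 10 dark lines of bile duct and progenitor markers slope downward.

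Part of the lymphoid and blood markers lay below the array median in both pools. Of 22 measured T and NK cell markers 14 were, including Cd3d at 8.7 and 7.1, and the compared members had a median of 0.23. Of 14 B and plasma cell markers 10 were below it. Below it were also 7 of 14 erythroid and 4 of 9 platelet markers. The compared erythroid and platelet markers had medians of 0.15 and 0.15, which turned to -0.03 and -0.01 with arrays divided by their median. The part of these cell types in the lists above was not tested.

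The lowest list median of the 60 was that of markers of bile duct and progenitor cells, where all 10 compared members were lower and 4 at least 2-fold lower. Their median was -0.86 and their summed signal over all 15 measured members was 9218 with TRF2DBDM against 20201 with GFP. Most of both sums came from Krt8, Krt18, Anxa2 and Anxa5. The members past 2-fold were Anxa2, Anxa5, Cd24a, a surface glycoprotein of progenitors, at 297.5 in the GFP pool and 55.7 in the TRF2DBDM pool, and Prom1, at 434 and 184. Of the markers that define bile duct cells, Krt19 had 72.8 and 55.1, and Krt7, Epcam and Sox9 were below the array median in both pools. The part of these cells in the genes above was not tested. Krt8 and Krt18, keratins that hepatocytes also make, had 4391 and 2919.7, and 7159.9 and 4174. The list of fetal and oncofetal liver genes had a median of -0.51, with 4 of 12 members at least 2-fold lower. That median ran from -1.55 over the 6 members that passed the level filter at percentile 75 to -0.06 over 20 members with no level filter. Afp, alpha-fetoprotein, had 681 and 225, and Cdkn1c, an imprinted cell cycle inhibitor, went the other way, at 82.7 and 319.

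Cytoskeletal and injury-associated genes were lower as well. Their median was -0.47, with 34 of 46 lower and 6 at least 2-fold lower, Sprr1a first. The annexins, which bind membranes in the presence of calcium, were lower in 6 of 7 compared genes. Anxa2 had 4711 in the GFP pool and 933 in the TRF2DBDM pool, Anxa5 2710.2 and 657, and Anxa3 272 and 90.7. S100a10, the partner of Anxa2, had 4630 and 2124. Of the tropomyosins, which stabilise actin filaments, Tpm1 had 989 and 428 and Tpm2 679 and 330.4, whereas Tpm4 had 448 and 606. The other 12 members were higher, S100a4 most, at 27.8 and 107, with Lcp1, the leukocyte plastin, at 166 and 297. Timp1, an inhibitor of matrix proteases, was lower, at 319.9 and 115.5, while the extracellular matrix list as a whole had a median of 0.23. In the retinoid list, Cyp26a1 was the only member at least 2-fold lower. Adh4, an alcohol dehydrogenase that can oxidise retinol, and Rdh7, a retinol dehydrogenase, were higher, at 203 and 816, and 1380.1 and 3432. The retinoic acid receptor Rarb, at 68.2 and 54.7, differed less.

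Of 50 compared mitosis genes 42 were lower with TRF2DBDM and 5 at least 2-fold lower, at a median of -0.36. Plk1, a kinase of mitotic entry, had 1292 in the GFP pool and 531 in the TRF2DBDM pool. Tpx2, which activates the spindle kinase Aurka, had 316 and 97.6, and Foxm1, a transcription factor of mitotic genes, had 196.5 and 65.5. The log2 ratios of their probe sets ran from -1.43 to -0.45 for Tpx2 and from -1.23 to -0.41 for Foxm1. Other members were near equal, with Mki67, the Ki-67 antigen, at 120.3 and 115.5 and Top2a at 304 and 279. DNA replication and G1/S genes had no shared direction, with 26 higher and 26 lower and none at least 2-fold apart. Ccne1, cyclin E, had 294 and 504, and Tk1, thymidine kinase, had 362 and 211. Cell cycle inhibitors had a median of 0.10, or -0.09 with arrays divided by their median.

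In these p53-null livers the DNA damage signalling and repair list had a median of -0.02, with 22 members higher and 22 lower, and Rad9a, of the checkpoint clamp, was its only member past 2-fold, at 79.7 in the GFP pool and 13.7 in the TRF2DBDM pool. Atm, the kinase that TRF2 restrains at telomeres, had 58.0 and 44.5, and Chek2, its substrate, had 115 and 75.7. Of 21 compared p53 target genes 13 were higher, with a median of 0.18, or 0.01 with arrays divided by their median. Cdkn1a, which encodes p21, had 1519.7 and 1727. Mdm2, the ubiquitin ligase of p53, had 125 and 269, a ratio of 1.92, and its second probe set had a log2 ratio of 1.23. By the probe set used, Thbs1, a matrix protein also released by platelets, was the only member past 2-fold, at 20.4 and 113. The second probe set of Thbs1 had a log2 ratio of 0.37. Plk2 was at the other end, at 200 and 86.7. The list of telomere and telomerase genes, which includes the shelterin genes, had a median of 0.07 over 13 members, or -0.10 with arrays divided by their median, and Tert, the catalytic subunit of telomerase, was below the array median at 4.5 and 6.7. Pro-apoptotic genes and caspases had a median of -0.09, with none of 27 at least 2-fold apart. Anti-apoptotic genes had a median of -0.17, and their members past 2-fold were the heat shock genes Hspa1b, at 203.5 and 46.5, and Hspb1, at 2365 and 781.

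The list of endoplasmic reticulum stress genes, which act in protein folding, had a median of -0.20, with 27 of 39 lower and 6 at least 2-fold lower. The 6 were Syvn1 and Derl3, which act in the degradation of misfolded proteins, Creld2, and the luminal folding factors Sdf2l1, at 483 in the GFP pool and 158 in the TRF2DBDM pool, Manf, at 2365.5 and 1013, and Pdia4, at 347 and 132. Ern1, the stress sensor IRE1 that acts upstream of XBP1, was higher, at 44.2 and 114, as was Atf3, a stress-induced factor, at 61.6 and 174. Ddit3, which encodes CHOP, had 240.5 and 270.2, and Atf4, a factor upstream of it, had 730.2 and 807. Among immediate early genes Nr4a1 was higher, at 55.2 and 206.5, and Ier3 lower, at 806 and 381, with a list median of 0.06 that turned to -0.09 with arrays divided by their median. Oxidative stress genes of NRF2 had a median of 0.07, or -0.11 under that scaling, with Ephx1, an epoxide hydrolase, at 585 and 1673 and Cat, catalase, at 518 and 1178.

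Core cellular machinery differed by small amounts, mostly in the lower direction. Of 35 proteasome subunits 28 were lower, with a median of -0.19, and Psmd8, of the regulatory particle, was the member past 2-fold, at 2276 in the GFP pool and 1074 in the TRF2DBDM pool. Of 40 cytosolic ribosomal proteins 33 were lower, with a median of -0.12. Translation initiation and tRNA charging genes had a median of -0.10, with Eif4ebp1, a repressor of cap-dependent translation, at 1628 and 599. The 3 probe sets of Eif4ebp1 had log2 ratios from -1.4 to -0.17. Heat shock proteins had a median of -0.07. Ribosome biogenesis genes had a median of 0.10, with 29 of 41 higher, and this turned to -0.05 with arrays divided by their median.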

How the data were processed

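Total RNA of each pool was labelled from 6 microg and hybridized to a 22690-probe-set Affymetrix array, per the labels. The authors deposited MAS5 intensity values (signals) per probe set, which the submitters' processing notes name and whose range fits an unlogged scale; no source used here gives the MAS5 version or target. The series design names Array Assist for the authors' own clustering. Of the probe sets, 20393 were annotated to 1 symbol (20364 of them in the RefSeq table), 691 to several and 1606 to none. For a gene with several probe sets, the one with the highest mean over both arrays was taken, and a pseudocount of 32 was added before the ratio. Python 3.11.15, pandas 2.3.3 and numpy 2.4.6 were used, and the code was tested on simulated data. A ratio of at least 2 was counted. Arrays have no count of molecules, and their number limits the precision.

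The text names the 20 highest and 20 lowest ratios, up to 5 members per list with the largest log2 ratio and 2 in the opposite direction, the shelterin genes and families of a listed member. Genes with probe sets on both sides of 1, predicted genes and clones were passed over among the 20. Other members were named after their values were seen, for their role in the pathway. The comparison and the lists were chosen with earlier results of these data known. Alternatives were 2 other scalings, other pseudocounts, other level filters and other probe set rules. Promoters on chromosome 18 were left out, and a gene with several starts was read at the most upstream one.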

Additional observations from a re-analysis of the deposited data

Results flagged for a closer look

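Probe sets that the comparison does not use also differed between the pools. The control probe set for a B2 repeat, a short interspersed element of the mouse genome, had a signal of 866.4 with TRF2DBDM and 212.5 with GFP, a ratio of 3.67. A second B2 control and a B1 control had ratios of 1.35 and 1.44. Among 1015 probe sets without a single gene symbol above the array median, 58 (5.71%) were at least 2-fold higher with TRF2DBDM and 35 (3.45%) at least 2-fold lower. These shares stand beside 4.65% and 2.95% of the genes compared.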

How the results depend on the processing

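With 1 pool per virus, no replicate could be left out. No paired analysis was possible because each group had 1 array. Of 160 named genes at least 2-fold apart, 159 kept their direction under every one of 8 alternatives that gave them a value. The exception was Cmpk2, an interferon-stimulated gene, whose second probe set had a log2 ratio of 0.15. Most alternatives could not have reversed a 2-fold difference, so the count says little about stability. A pseudocount keeps the sign of a log2 ratio, and a level filter leaves kept ratios unchanged. Division by the array median shifts ratios by far less than 2-fold. The probe set rules could reverse a direction, but only for genes with more than 1 probe set. Among the highest and lowest ratios, genes with probe sets on both sides of 1 had been passed over. A pseudocount of 1 gave 691 genes higher and 443 lower, and 100 gave 191 and 100, with a macrophage median of 0.54. With arrays divided by their median, 369 genes were lower, and the medians of all genes, chemokines, p53 targets, DNA damage and ribosome biogenesis genes were -0.13, 0, 0.01, -0.17 and -0.05. With the level filter at percentile 75, p53 targets had 0.06 and DNA damage genes -0.17. The second probe set per gene covered only 2497 genes and gave 75 higher and 81 lower. Under it, the medians were 0.35 for hepatocyte markers (4 genes), 0.51 for macrophage markers (5), -0.31 for interferon-stimulated effectors (9), 0.30 for chemokines (4), 0.59 for urea cycle and amino acid genes (9), 0.06 for p53 targets (8) and 0.09 for DNA damage genes (8). The interferon signalling median became 0.16 there (9). Dividing each array by its median multiplies all its signals by 1 factor, so the lists shift together. Less the median of all genes, chemokines had 0.14 as deposited and 0.13 under that scaling, and p53 targets 0.16 and 0.14. DNA damage genes had -0.04 and -0.04, and ribosome biogenesis genes 0.07 and 0.08. Apart from this and from the second probe set alternative, which measures fewer genes, the cause of the changes above was not tested. Quantile normalization, no level filter and the mean of a gene's probe sets were judged by a shift above both 0.1 and 1.5 times. None of them moved the 2-fold counts or the median of all compared genes by that much. List medians that moved by that much numbered 3 under quantile normalization, 4 without the level filter and 1 with the mean of probe sets. Quantile normalization took glycolysis from -0.19 to -0.3, acute phase proteins from 0.11 to -0.04 and iron handling from 0.09 to -0.05. Further list medians moved by over 1.5 times. With the second probe set they were 0.58 for complement (5), 0.27 for hepatic transporters (8), 0.33 for gluconeogenesis and glycogen (5), -0.41 for glycolysis (7), 0.62 for endothelial markers (5) and -1.15 for fetal and oncofetal genes (5), and they turned to -0.30 for telomere genes (3), -0.10 for nuclear receptors and hepatocyte factors (14), -0.05 for stellate markers (4), -0.04 for NRF2 genes (16) and -0.03 for cell cycle inhibitors (7). A pseudocount of 100 gave 0.58 for female-biased genes, 0.38 for gluconeogenesis, -0.21 for cytokines and -0.27 for fetal genes. Without the level filter, male-biased genes had 0.53 and cytokines -0.16. With the filter at percentile 75, bile duct and progenitor markers had -1.51, pericentral genes 1.24 and interferon signalling -0.56. Low signals limit the size of ratios, since the pseudocount is of the order of the array median.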
